A study of Mus musculus with 53 samples.

Results

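The 38 genes described here are 7 genes of tanycytes and 31 genes of ependymal cells and their motile cilia. They were chosen by name, not by their values, from 53379 genes in the count tables, though with earlier results of these data known. All 38 were matched to 1 Ensembl identifier each. RNA was sequenced from the laser-captured paraventricular nucleus (PVN) and arcuate nucleus (ARC) of adult C57BL/6 mice of 13 to 14 weeks, either Nnat+/+ or Nnat+/-p, the latter with a mutant paternal copy of Nnat, an imprinted gene that is expressed from that copy. The mutant allele carries a lacZ cassette and lacks exons of Nnat. The PVN was taken from males and females on chow and from males on a 45% high fat diet (HFD), and the ARC from males on chow or HFD. On chow, Nnat+/-p mice were split by labelled body weight into a non-obese group (27.4 to 34.3 g in males, 20.4 to 23.9 g in females) and an obese group (38.8 to 46.5 g in males, 31.5 to 33.35 g in females). Nnat+/+ mice on chow weighed 31.4 to 33.5 g (males) and 24.1 to 24.6 g (females), Nnat+/+ males on HFD 37.4 to 43.9 g, and Nnat+/-p males on HFD 38.2 to 43.9 g.

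Ependymal cells line the cerebral ventricles and move cerebrospinal fluid with bundles of motile cilia, whose core, the axoneme, carries dynein arms as motors, a nexin link that limits sliding, radial spokes and a central pair of microtubules. Tanycytes are specialised cells of the floor and lower walls of the third ventricle, next to the ARC. They send a process into the hypothalamus, activate thyroid hormone and carry signals between the cerebrospinal fluid, the blood of the median eminence and neurons.

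There were 49 libraries: in the female PVN 4 of Nnat+/+, 3 of non-obese and 3 of obese Nnat+/-p mice; in the male PVN 3, 3 and 4 of the same groups, 6 of Nnat+/+ mice on HFD and 3 of Nnat+/-p mice on HFD; and in the male ARC 2, 4, 4, 6 and 4. The non-obese ARC replicates 39 and 40 carry the same labelled weight (34.3 g), which 1 non-obese mouse of the PVN has (replicate 19), so they may be 1 animal. The n of 4 may then be 3. With both summed as 1 sample, the same 10 genes were called between the nuclei. Library totals were 6219365 to 30228973 counts in the female PVN, 2268021 to 8560199 counts in the male PVN and 1479953 to 18058097 counts in the ARC. The limit that a count of 0 allows, 3 counts, thus came to between 0.0992 and 2.03 CPM (counts scaled to the raw library total). Levels below are CPM after a further scaling between libraries (TMM), with factors of 0.615 to 1.44, so these limits are approximate for them. Nnat itself was at 267 to 566 CPM in the 21 Nnat+/+ libraries and 0.32 to 14.4 CPM in the 28 Nnat+/-p libraries. Of the libraries, 3 stood apart by their markers. Replicate 43 (ARC, non-obese) had 12 CPM over 4 markers of ARC neurons, where the other 19 ARC libraries had 46.2 CPM or more. Replicate 15 (Nnat+/+ on chow) had a summed level of 10.1 CPM over 5 markers of PVN neurons and 148 CPM over 4 markers of ARC neurons, and replicate 24 (Nnat+/+ on HFD) 144 CPM over the PVN markers, where the other 17 male PVN libraries had 490 to 1927 CPM for the PVN markers and 3.86 to 17.1 CPM for the ARC markers. The ARC libraries had 9.04 to 73.1 CPM for the PVN markers and 12 to 642 CPM for the ARC markers. Both sums of replicate 15, labelled PVN, thus lay within the range of the ARC, and the cause was not tested. In these bulk samples, fewer cells of a type and less RNA per cell cannot be told apart.

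The label was checked against the defining markers of both cell types, and several of them were close to 0. The level of Foxj1, the transcription factor that drives motile ciliogenesis, was low, with a lowest, median and highest value of 0, 2.75 and 6.52 CPM in the male PVN, 0.314, 2.84 and 8.73 CPM in the ARC and 0, 0.873 and 6.15 CPM in the female PVN. Tmem212, an ependymal marker, had no count in 40 of 49 libraries and reached 2.61 CPM at most. Mia, another ependymal marker, had no count in 42 libraries and reached 0.9 CPM. Ccdc153, a marker of multiciliated ependyma, had no count in 28 libraries and was above 5 CPM in 1 PVN library (replicate 14, 14.2 CPM) and 1 ARC library (replicate 47, 8.06 CPM). Rax, the homeobox gene that defines hypothalamic tanycytes, had no count in 27 libraries, 13 of them of the ARC, and reached 7 CPM in the PVN (replicate 13) and 4.5 CPM in the ARC (replicate 44). The libraries thus held little of the defining transcripts of either cell type, which goes against naming the sets by cell type. They are called the tanycyte list (7 genes) and the cilia list (31 genes) below, after the rule by which they were chosen.

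Of the 38 genes, 12 had counts in every library, 10 had a median under 1 CPM and 4 had a median over 10 CPM. Per kilobase of exon, a level that can be compared between genes, the highest median in the PVN was that of Drc1, which encodes a subunit of the nexin link, at 7.07 CPM per kb in males and 11.2 in females. In the ARC it was that of Ak7, an adenylate kinase of the axoneme, at 14.3 CPM per kb, before Drc1 at 5.8. Tekt1, a filament protein inside the microtubule doublets, was at 3.29 to 4.04 CPM per kb in the 3 sets of libraries, Rsph1, of the radial spoke head, at 3.07 to 7.47, and Rsph4a, of the same structure, at 2.12 to 3.05. Tm4sf1, a membrane protein also made by blood vessels, had a median of 7.45 CPM in the female PVN, 3.1 CPM in the male PVN and 3.6 CPM in the ARC, and its highest value of 71.5 CPM was in 1 female PVN library (replicate 10) against 12.9 CPM in the next. In replicate 10, 1 gene took 29.9% of all counts, and its part in that value was not tested. Rsph1 had a lowest, median and highest level of 0.188, 4.69 and 7.79 CPM in the male PVN, 0, 4.21 and 15.2 CPM in the ARC and 2.13, 10.2 and 19.9 CPM in the female PVN. The female PVN libraries are 1 sequencing pool, so that sex and pool cannot be told apart, and no test was made between the sexes.

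**Figure D1:**
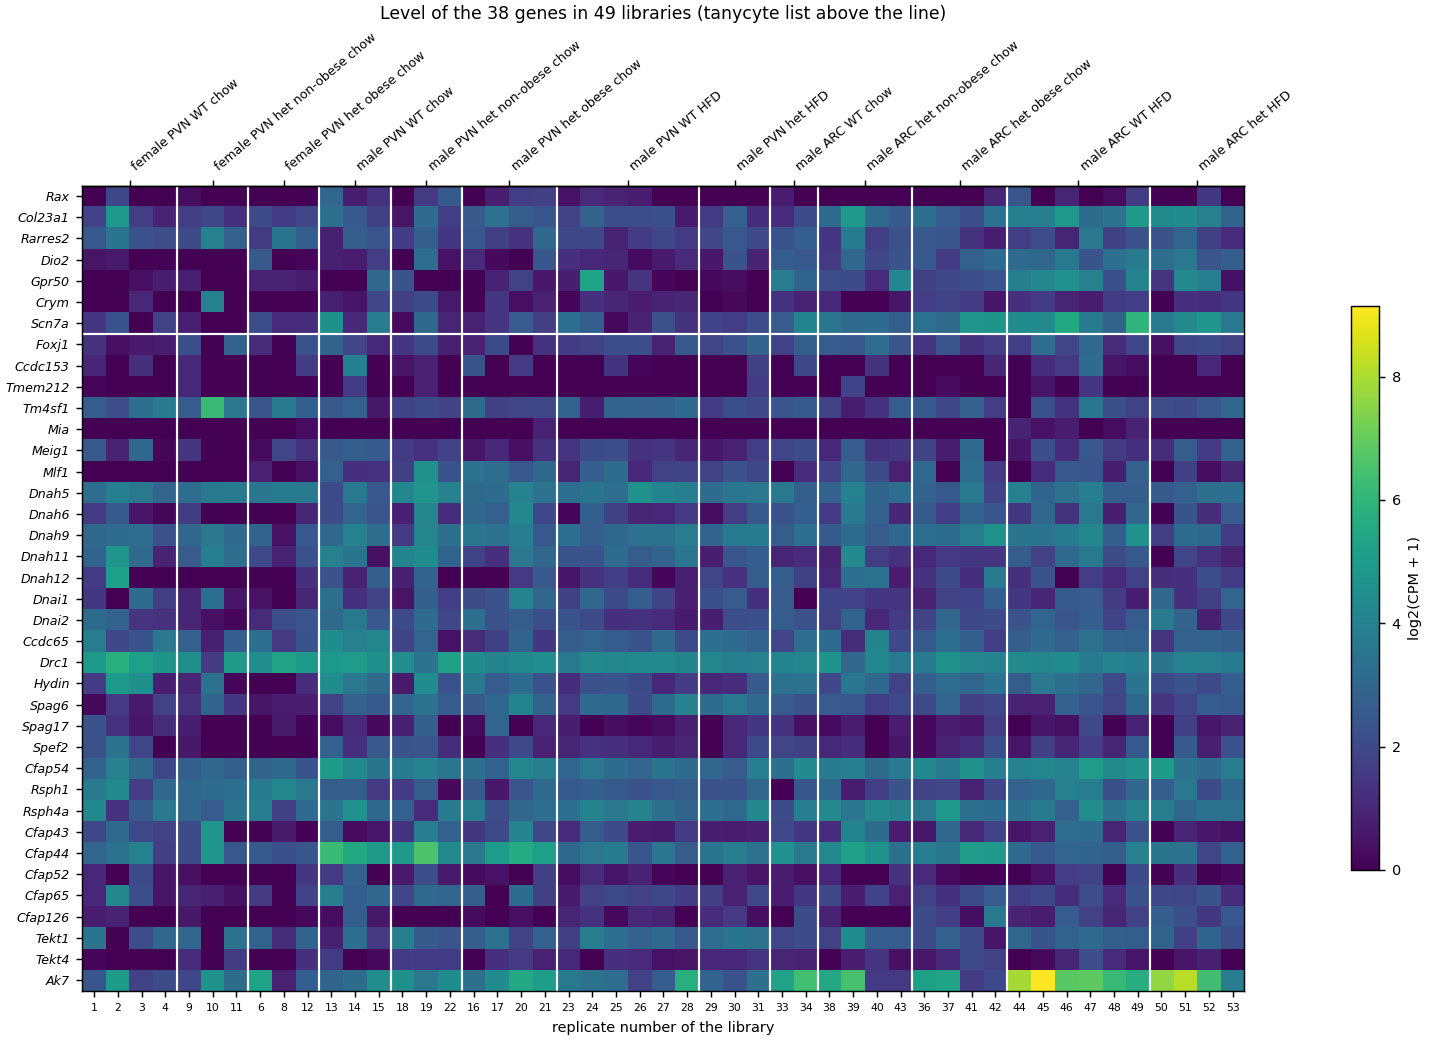
Level of the 38 genes (one per line, the 7 of the tanycyte list above the white line) in the 49 libraries (columns, by replicate number and group), as log2(CPM + 1). WT is Nnat+/+ and het is Nnat+/-p. Ak7 is brightest in the ARC of mice on HFD (up to 563 CPM), Drc1 is present throughout, and Tmem212 and Mia are dark in most columns.

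The sequence at the start sites of the genes was also compared. RefSeq windows of 300 bases (250 before to 50 after the start; GRCm38.p6) were matched for 30 of the 38 genes. The 6-base string GTTGCC or its complement GGCAAC is one arm of the X-box bound by RFX factors, which regulate ciliary genes. A gene was counted where any of its windows held a string on either strand. This arm was present in 10 of 26 genes of the cilia list with a window (38.5%), namely Ccdc153, Mlf1, Dnai2, Drc1, Hydin, Spag6, Spef2, Cfap44, Tekt1 and Tekt4. It was present in 0 of 4 genes of the tanycyte list and in 14.1% of 27025 genes. The full X-box consensus, which can hold the shorter string, was found on either strand in 2 of 26 (Tm4sf1 and Tekt4) and in 1.5% of all genes. The forkhead string GTAAACA (or TGTTTAC) was found in 3 of 26 (Mlf1, Cfap43 and Ak7) and in 4.1% of all genes, and the homeobox string TAATTA in 0 of 30 and in 6.1% of all genes. A match is only a description of the letters in the window. The windows of the 3 genes of the axoneme on which the results below turn are shown, all on the plus strand, with the strings in capitals: the X-box arm in Cfap44 (chr16:44394549-44394848, 2 copies) and Hydin (chr8:110266727-110267026, 1 copy), and the forkhead string in Ak7 (chr12:105705732-105706031).
Cfap44: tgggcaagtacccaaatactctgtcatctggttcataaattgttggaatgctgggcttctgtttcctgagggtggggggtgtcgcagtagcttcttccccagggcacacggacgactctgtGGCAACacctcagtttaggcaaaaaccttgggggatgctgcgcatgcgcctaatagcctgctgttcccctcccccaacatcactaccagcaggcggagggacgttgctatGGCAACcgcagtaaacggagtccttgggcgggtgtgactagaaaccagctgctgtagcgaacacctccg
Hydin: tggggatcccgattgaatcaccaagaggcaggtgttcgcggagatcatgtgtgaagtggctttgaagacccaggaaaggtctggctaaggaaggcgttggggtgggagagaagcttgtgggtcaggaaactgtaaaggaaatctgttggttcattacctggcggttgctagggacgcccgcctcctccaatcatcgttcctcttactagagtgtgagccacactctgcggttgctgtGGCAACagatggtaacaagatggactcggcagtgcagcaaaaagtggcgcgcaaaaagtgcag
Ak7: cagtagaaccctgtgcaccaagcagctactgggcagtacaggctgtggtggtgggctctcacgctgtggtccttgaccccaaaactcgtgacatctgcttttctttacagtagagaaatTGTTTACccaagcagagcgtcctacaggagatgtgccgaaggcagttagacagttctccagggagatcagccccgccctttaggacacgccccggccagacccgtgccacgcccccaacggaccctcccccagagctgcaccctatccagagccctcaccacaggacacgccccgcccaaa

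The first comparison was between the nuclei. In males, 4 of the 7 genes of the tanycyte list were called lower in the PVN than in the ARC (Gpr50, Dio2, Scn7a and Col23a1) and none higher. The median log2 fold change was -1.54 over the 6 genes with a count in every group, and -1.11 with Rax, which had groups at 0 and whose own value cannot be read. The 30 genes of the cilia list that were tested went both ways, with 4 called higher (Dnah11, Cfap44, Spag6 and Mlf1) and 2 lower (Ak7 and Cfap126), and a median of 0.21, with or without Cfap126 and Tmem212, which had groups at 0. The median over all genes was 0.13. In all, 10 of 37 genes tested were called at an adjusted p under 0.05, against 15.8% of all 21400 genes tested (8.53% higher and 7.25% lower in the PVN). The values are log2 fold changes of the PVN minus the ARC, as the mean over 5 conditions, from the quasi-likelihood test of edgeR, with p adjusted by the Benjamini-Hochberg method over all genes tested. The nuclei were sequenced in separate pools, and nucleus and pool cannot be told apart.

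Gpr50, an orphan receptor related to the melatonin receptors and made by tanycytes, had no count in 7 of 19 male PVN libraries, and its lowest, median and highest level there was 0, 0.268 and 38 CPM, against 0.329, 5.52 and 23.9 CPM in the ARC. The PVN value of 38 CPM was that of replicate 24, and the next was that of replicate 15 (7.22 CPM), the libraries that stood apart. Their part in the level was not tested, but in the other 17 male PVN libraries Gpr50 was between 0 and 4.02 CPM. The log2 fold change was -2.61 ± 0.58 (SE; adjusted p = 0.000816), and -4.61 without replicates 15 and 24 (adjusted p = 1.21e-08). By group, the ARC values were 13.5 and 6.77 CPM in Nnat+/+ mice on chow, 3.49, 3.26, 1.21 and 18.4 CPM (replicate 43) in non-obese and 2.34, 2.87, 3.62 and 4.28 CPM in obese Nnat+/-p mice. On HFD they were 3.74 to 23.9 CPM (median 15.6) in Nnat+/+ and 1.57, 18.5, 14.2 and 0.329 CPM in Nnat+/-p mice. Every group of the ARC thus had counts in all its libraries. On chow, all obese values lay below both Nnat+/+ values. Of the non-obese values, only that of replicate 43 lay above them. No gene of the tanycyte list was called between these chow groups (edgeR). The HFD groups overlapped.

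Dio2, the deiodinase with which tanycytes make active thyroid hormone, had a lowest, median and highest level of 0, 0.892 and 8.54 CPM in the male PVN and 1.96, 5.98 and 12.7 CPM in the ARC. The PVN values were 0.725, 0.601 and 2.18 CPM in Nnat+/+ mice on chow, 0, 8.54 and 0.376 CPM in non-obese, 1.2, 0.176, 0 and 4.41 CPM in obese Nnat+/-p mice, 0.219 to 1.41 CPM (median 0.999) in Nnat+/+ and 0.549, 4.03 and 0.892 CPM in Nnat+/-p mice on HFD. Of the 19 PVN values, only that of replicate 19, of the non-obese group, was above the median of the ARC. In the ARC, Dio2 was at 5.51 and 4.71 CPM in Nnat+/+ mice on chow, 1.96 to 7.18 CPM in non-obese and 2.05 to 8.09 CPM in obese Nnat+/-p mice, 4.14 to 12.7 CPM (median 8.38) in Nnat+/+ and 4.32 to 11.5 CPM in Nnat+/-p mice on HFD. The nuclei differed by -1.98 ± 0.40 (SE; log2, adjusted p = 0.000249, edgeR).

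Scn7a, a sodium-sensing channel of glia around the ventricles, was at 0.138, 2.34 and 23.2 CPM (lowest, median and highest) in the male PVN and at 5.21, 12.8 and 62.4 CPM in the ARC. In the PVN its 2 highest values, 23.2 and 13.4 CPM, both came from the 3 Nnat+/+ mice on chow, the second of them from replicate 15, and the other mouse had 1 CPM. All other groups of the PVN lay between 0.138 and 8.91 CPM. The nuclei differed by -2.04 ± 0.34 (SE; log2, adjusted p = 6.58e-06, edgeR).

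Col23a1, a transmembrane collagen of tanycytes, was at 0.383, 3.75 and 9.5 CPM in the male PVN and at 1.23, 9.68 and 29.5 CPM in the ARC, a difference of -1.11 ± 0.29 (SE; log2, adjusted p = 0.0056, edgeR), which was no longer called without replicate 34. Rarres2, which encodes the adipokine chemerin, was at 0.725, 2.88 and 7.27 CPM in the male PVN and 0.714, 3.67 and 13.1 CPM in the ARC (-0.31 ± 0.36, adjusted p = 0.649). Crym, a thyroid hormone-binding protein, was at 0, 0.725 and 3.1 CPM in the male PVN and 0, 1.31 and 2.67 CPM in the ARC (-0.83 ± 0.56, adjusted p = 0.342). Neither passed the test, and for both the nuclei overlapped over most of their range. In the female PVN, Gpr50 reached 0.883 CPM at most, Dio2 4.91, Scn7a 3.94, Col23a1 28 and Rarres2 15.2 CPM, and Crym was at 0 in 8 of 10 libraries.

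**Figure D2:**
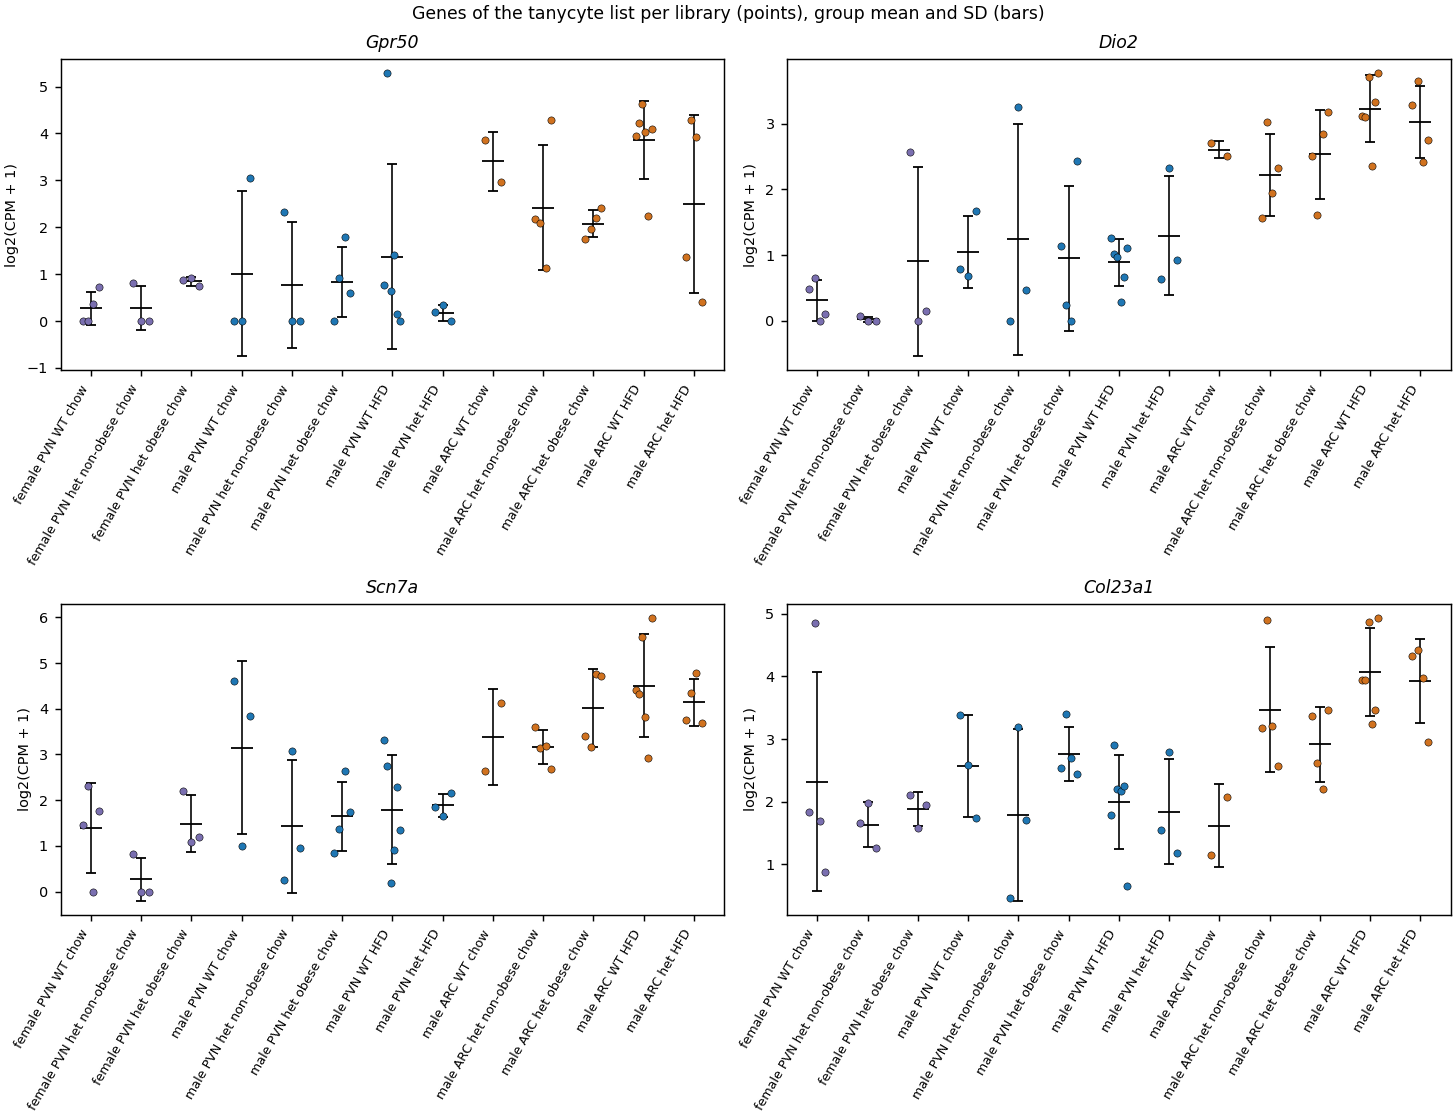
Gpr50, Dio2, Scn7a and Col23a1 in each library (points), as log2(CPM + 1), with the mean and SD of each group (bars), in the female PVN (purple), male PVN (blue) and male ARC (orange). WT is Nnat+/+ and het is Nnat+/-p. For Dio2 and Scn7a the ARC points lie mostly above the PVN points, and the single high PVN point of Gpr50 is replicate 24.

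The medians of the tanycyte list varied between conditions, and the variation of the list as a whole was not tested. For single genes, the test of differences between conditions given below called 0 of 7 with edgeR. It covered diet in Nnat+/+ mice, genotype on HFD, and obese against Nnat+/+ mice on chow. Over the 7 genes, or 6 where Rax had no count in a group, the median was -2.50 (6 genes) in Nnat+/-p mice on HFD, -1.23 in Nnat+/+ mice on HFD, -1.37 in obese Nnat+/-p mice on chow, -1.23 (6 genes) in non-obese Nnat+/-p mice on chow, and 0.11 in Nnat+/+ mice on chow, where Scn7a was at 0.14 and Col23a1 at 1.23. The 3 PVN libraries of Nnat+/+ mice on chow include replicate 15, whose PVN and ARC marker sums lay within the ARC range. The median of the list without it is not given. In that condition the median over the 4 markers of ARC neurons was -0.13, against -4.96 to -2.82 in the others. Within single conditions, 5 genes were called in Nnat+/+ mice on HFD (Col23a1, Dio2, Scn7a, Cfap54 and Ak7, all lower in the PVN; 2.79% of all genes called), 2 in obese Nnat+/-p mice (Scn7a and Cfap126; 3.27%), 1 in Nnat+/-p mice on HFD (Ak7; 1.17%), and 0 in non-obese Nnat+/-p mice (1.68%) and in Nnat+/+ mice on chow (0.014%). DESeq2 called 6, 2, 3, 0 and 0 in the same order, with 4.11%, 6.08%, 2.02%, 3.33% and 0.15% of all genes called. In the conditions with 0 calls, 7 genes of non-obese and 5 of Nnat+/+ mice had an unadjusted p under 0.05 (16.7% and 7.26% of all genes). In Nnat+/+ mice on chow, without replicate 15 the calls were 0 of these genes and 0.7% of all genes, and without replicates 15 and 24 they were 1 of these genes (Gpr50) and 0.9% of all genes. For the conditions with 0, 3 and 2 libraries of the PVN and ARC were compared for Nnat+/+ mice and 3 and 4 for non-obese mice.

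Among the genes of the axoneme, Ak7 gave the widest range of values of all 38 genes. In the ARC it was at 50.6 to 563 CPM (median 113) in Nnat+/+ mice on HFD and at 202, 286, 80.6 and 13.2 CPM in Nnat+/-p mice on HFD. On chow it was at 37.4 and 82.1 CPM in Nnat+/+ mice, 45, 88.1, 1.96 and 1.92 CPM in non-obese and 35.5, 39, 2.07 and 3.09 CPM in obese Nnat+/-p mice. The 8 Nnat+/-p libraries on chow thus fell into values of 35.5 CPM or more and values of 3.09 CPM or less, in both weight groups. The high values were those of replicates 36 to 39 and the low values those of replicates 40 to 43. Replicates 39 and 40, which may come from the same animal, lay on opposite sides (88.1 and 1.96 CPM). Whether the split lies between mice or between libraries was not tested. In the male PVN, Ak7 lay between 2.41 and 51.9 CPM (median 9.8). Ak7 was lower in the PVN by -2.18 ± 0.37 (SE; log2, adjusted p = 1.38e-05, edgeR), with -3.73 in Nnat+/+ and -4.43 in Nnat+/-p mice on HFD and 0.33 in obese Nnat+/-p mice on chow.

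Cfap126, which takes part in placing the basal body of cilia, was lower in the PVN by -2.24 ± 0.67 (adjusted p = 0.0147, edgeR), at 0, 0.255 and 5.81 CPM (lowest, median and highest) in the male PVN and 0, 2.02 and 11.9 CPM in the ARC, and lost its call without replicate 34 or 38. It had no count in the 3 non-obese PVN libraries, so the size of its fold depends on how the fit treats 0. The genes higher in the PVN were Dnah11 (1.57 ± 0.39, adjusted p = 0.00254), a heavy chain of the outer dynein arm, Mlf1 (1.34 ± 0.46, adjusted p = 0.0366), Spag6 (0.86 ± 0.29, adjusted p = 0.0307), of the central pair, and Cfap44 (0.77 ± 0.20, adjusted p = 0.00526), of the tether that holds inner dynein arms. Dnah11 had a lowest, median and highest level of 0.336, 6.44 and 21 CPM in the male PVN and 0, 1.83 and 18.9 CPM in the ARC, and Mlf1 0.938, 3.94 and 24.1 against 0, 1.58 and 8.78 CPM. Spag6 was at 1.88, 7.57 and 16.5 CPM in the male PVN and 0.81, 3.43 and 7.33 CPM in the ARC. All 4 overlapped between the nuclei, and the calls of Mlf1 and Spag6 were lost without 6 and 5 of the 39 libraries in turn.

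The remaining genes of the cilia list with a fitted value lay between -0.63 (Dnah12) and 0.85 (Cfap65), none with an adjusted p under 0.05. They included the central pair gene Hydin (-0.33), the dynein genes Dnah5 (0.45), Dnah6 (-0.09), Dnah9 (0.21), Dnai1 (0.47) and Dnai2 (-0.08), the nexin link genes Drc1 (0.31) and Ccdc65 (-0.08), the radial spoke genes Rsph1 (-0.05) and Rsph4a (-0.29), and Foxj1 (-0.49). Rax and Tmem212 had groups with no count at all, so no fold is given for them, and Mia was not tested. Exons of 12 of the 38 genes overlap a gene on the opposite strand (among them Dio2, Dnah11, Hydin and Spag6) and 2 a gene on the same strand (Mia and Cfap43), and Spag6 has a near-identical copy, Spag6l (-0.35, adjusted p = 0.471). The strand setting of the counting is not given in the sources used here, so reads of such pairs cannot be told apart.

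**Figure D3:**
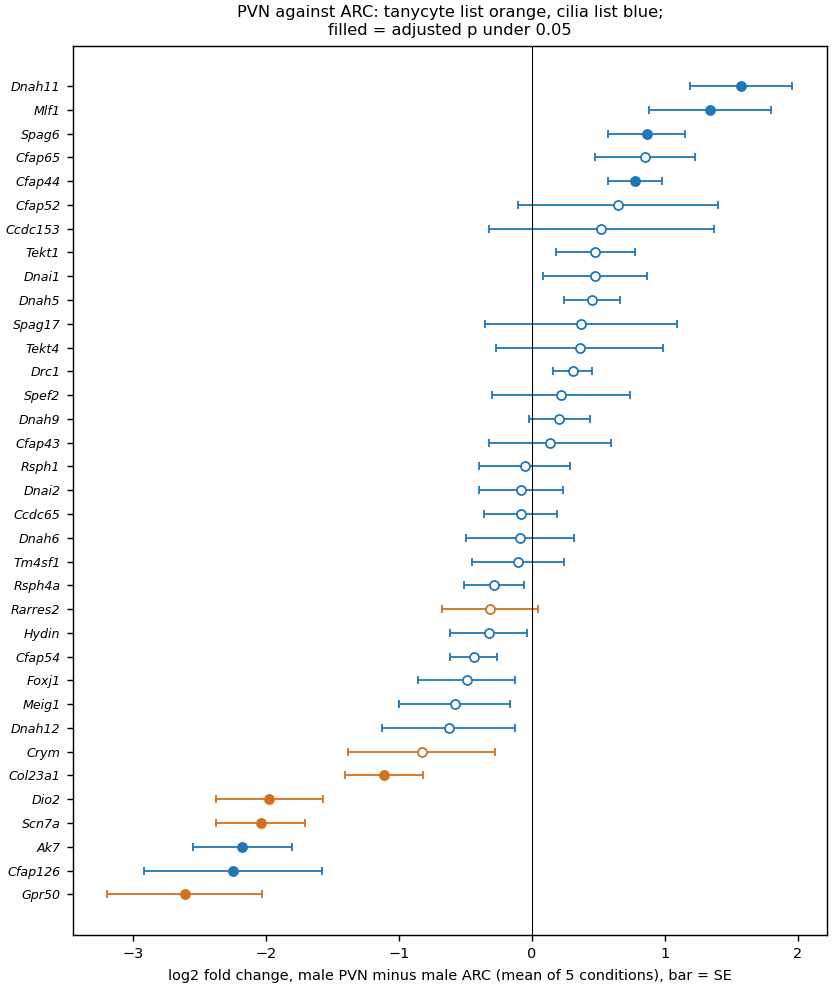
Log2 fold change of the male PVN minus the male ARC (x axis, mean over 5 conditions, bars are SE) for the 35 genes with a fitted value, ordered by size. Filled points have an adjusted p under 0.05. The 6 plotted genes of the tanycyte list (orange) run from -2.61 (Gpr50) to -0.31 (Rarres2). Rax, whose value cannot be read, is not shown. The cilia list (blue) runs from -2.24 (Cfap126) to 1.57 (Dnah11), and the lists overlap.

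Averaged over genes in each library, the tanycyte list (mean log2 CPM of 7 genes) was 0.79 to 3.30 (median 1.73) in the ARC, -0.25 to 2.00 (median 0.40) in the male PVN and -0.98 to 1.08 (median -0.19) in the female PVN. The highest values of the male PVN were those of replicates 15 and 24, and the other 17 libraries lay between -0.25 and 1.79. The cilia list (31 genes) was 0.85 to 2.74 (median 1.46) in the ARC, 0.98 to 2.54 (median 1.41) in the male PVN and -0.05 to 1.58 (median 0.88) in the female PVN. The pooled SD within groups was 0.633 for the tanycyte list and 0.443 for the cilia list. The difference of the means between the ARC and the male PVN was above that spread for the tanycyte list (1.90 and 0.604) and below it for the cilia list (1.57 and 1.59).

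**Figure D4:**
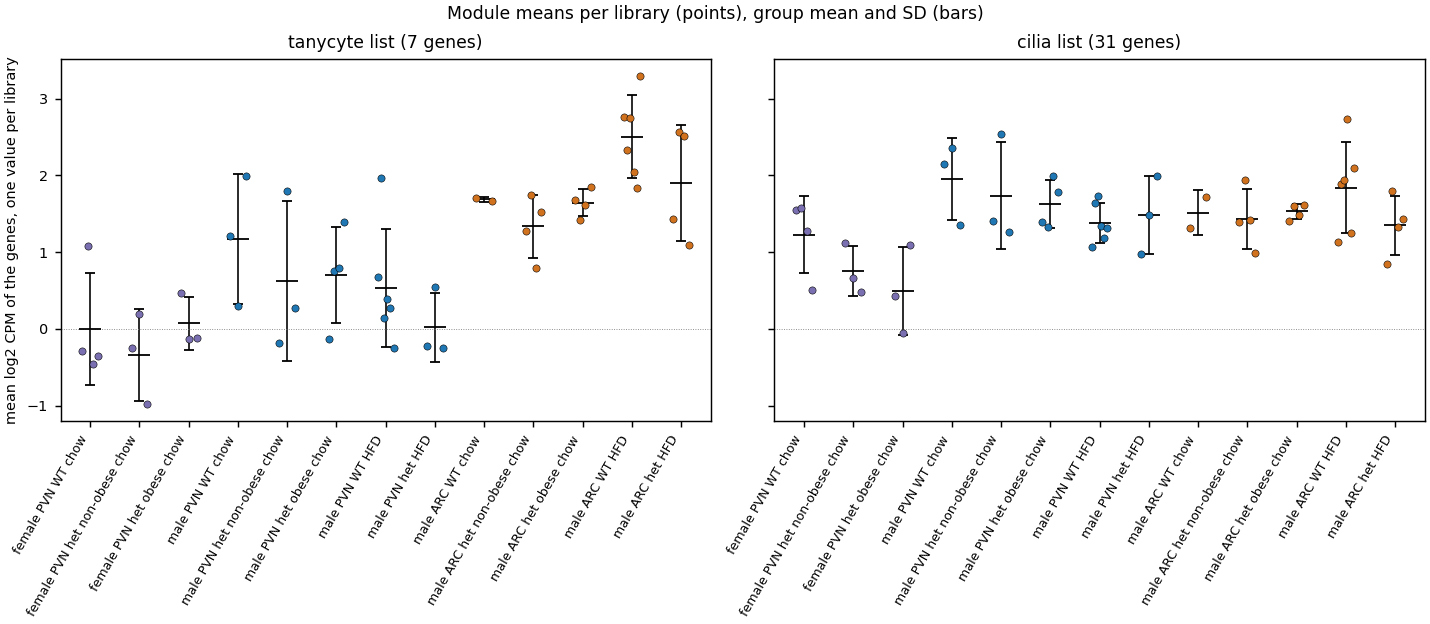
Mean log2 CPM of the 7 genes of the tanycyte list (left) and the 31 genes of the cilia list (right) in each library (points), with the mean and SD of each group (bars), in the female PVN (purple), male PVN (blue) and male ARC (orange). WT is Nnat+/+ and het is Nnat+/-p. Means of the tanycyte list are highest in the ARC of Nnat+/+ mice on HFD (1.84 to 3.30), while means of the cilia list of the ARC and male PVN overlap.

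Other cell types also differed between the nuclei, and their part in the results was not tested. Of 5 general markers of neurons, 3 were lower in the PVN and 1 higher (summed level 634 to 1287 CPM in the male PVN, 528 to 1321 CPM in the ARC). All 5 markers of PVN neurons were higher and all 4 tested markers of ARC neurons lower in the PVN. All 4 endothelial markers were higher in the PVN (summed level 60.8 to 196 CPM in the male PVN, 48.3 to 83.2 CPM in the ARC), all 5 oligodendrocyte markers were lower (206 to 570 and 239 to 802 CPM), and 2 of 6 astrocyte markers were lower (642 to 1152 and 751 to 1114 CPM). The choroid plexus, whose cells are also of ependymal descent, had 2 of 7 tested markers higher and 1 lower, with a summed level of 10.7 to 48.1 CPM in the male PVN and 20.2 to 71.2 CPM in the ARC. Its defining marker Ttr had a median of 0.612 CPM in the male PVN and 0.547 CPM in the ARC, which is near 0. The pars tuberalis, which lies under the ARC, had 1 of 5 markers lower (1.2 to 30.6 and 1.85 to 15.8 CPM), and its marker Cga had a median of 0 and 0.129 CPM.

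Wider lists of genes of the same 2 cell types gave no single direction. Of 29 other tanycyte genes tested, 6 were higher in the PVN, led by the intermediate filament gene Nes (0.93, adjusted p = 5.9e-05), the glucose transporter Slc2a1 (0.62, adjusted p = 0.000361) and the thyroid hormone transporter Slco1c1 (0.86, adjusted p = 0.00133), of which the transporters are also found in brain endothelium. Lower in the PVN were 8, led by the mTOR inhibitor Deptor (-1.46, adjusted p = 8.68e-08), the homeobox gene Six6 (-2.28, adjusted p = 1.82e-06) and Prdx6 (-0.56, adjusted p = 2.07e-05), a peroxidase. Of 104 other motile cilia genes tested, 8 were higher, led by Dnah8 (2.94, adjusted p = 1.42e-10), Dnah17 (1.74, adjusted p = 0.00108) and Dnaaf5 (0.64, adjusted p = 0.0151), and 6 lower, led by Tppp3 (-0.81, adjusted p = 1.55e-07), Dnal1 (-0.56, adjusted p = 4.38e-05) and Rfx3 (-0.52, adjusted p = 0.000433). The medians were -0.14 and 0.19. Of all genes in this test, 8.53% were called higher and 7.25% lower in the PVN. The counts of the other motile cilia genes were near these shares and are no result about them.

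The second comparison was between diets in Nnat+/+ males. In the PVN, 2 of 34 genes tested were called, both lower on HFD: Cfap44 and Hydin, at an adjusted p under 0.25, the threshold of the study. Of all 17576 genes tested, 1.43% were called (1.12% lower). Below an unadjusted p of 0.05 were 10 of the 34, 9 of them lower on HFD, against 10.3% of all genes. The median log2 fold change was -0.68 for the tanycyte list and -0.36 for the cilia list, and -0.03 for all genes. The 3 Nnat+/+ mice on chow include replicate 15, without which 8 genes were called (adding Ccdc153, Ccdc65, Cfap54, Dnai2, Gpr50 and Tmem212) and 5.42% of all genes. Without replicates 15 and 24 there were 4 (Cfap44, Hydin, Cfap54 and Dnai2) and 4.91% of all genes. The calls thus rose over all genes and not in these alone. The markers of the choroid plexus summed to 29 to 48.1 CPM on chow and 10.7 to 29.6 CPM on HFD. The highest sums were those of replicates 15 and 24. In the male PVN, Clic6 and Kl had the highest medians of these markers (7.92 and 6.57 CPM), and Ttr was near 0 (0.612 CPM). The part of these markers in the results was not tested.

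Cfap44 was at 74.6, 45.9 and 29.4 CPM in the PVN of Nnat+/+ mice on chow and at 4.49 to 12.6 CPM (median 9.2) in the 6 mice on HFD. All chow values lay above all HFD values. The log2 fold change was -2.48 ± 0.39 (SE; adjusted p = 0.000911, edgeR), and it was called under every alternative and with every library left out in turn (-2.71 to -2.07), also without replicates 15 and 24 (-2.80, adjusted p = 6.09e-05). In Nnat+/-p mice, whose diets were not compared by a test, it was at 29.9, 93.9 and 18.6 CPM in the non-obese and 11.4, 32, 48.7 and 35.1 CPM in the obese group on chow, and at 10.4, 13.9 and 9.94 CPM on HFD. Over all 19 male PVN libraries the range was 11.4 to 93.9 CPM on chow and 4.49 to 13.9 CPM on HFD. Obese mice on chow, whose weights overlapped those of the mice on HFD, had values on both sides of the chow median of 33.5 CPM.

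In the ARC, Cfap44 did not pass the test and the diets overlapped. It was at 23.9 and 12.1 CPM in Nnat+/+ mice on chow and 4.86 to 14.7 CPM (median 6.79) on HFD (-1.20 ± 0.48, adjusted p = 0.427, edgeR). Non-obese Nnat+/-p mice on chow had 18.8, 36.5, 24.3 and 9.28 CPM (the last from replicate 43), obese mice 13.9, 11.1, 31.2 and 29.5 CPM, and Nnat+/-p mice on HFD 10.7, 9.7, 2.8 and 6.09 CPM. In the female PVN, on chow only, Cfap44 was at 2.2 to 26.9 CPM (median 4.76).

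Hydin, a very large protein of the central pair, was at 20.8, 11.2 and 7.9 CPM in the PVN of Nnat+/+ mice on chow and 1.05 to 4.15 CPM (median 2.64) on HFD, again with no overlap (-2.31 ± 0.66, adjusted p = 0.162, edgeR). The call was lost without any 1 of 5 libraries (replicates 13, 23, 26, 27 and 28). Nnat+/-p mice had 0.574, 20.6 and 3.94 CPM (non-obese) and 11.8, 5.28, 8.27 and 3.89 CPM (obese) on chow and 1.1, 1.21 and 4.97 CPM on HFD, so that the diets overlapped there. In the ARC, Hydin was at 9.8 and 9.71 CPM in Nnat+/+ mice on chow and 3.04 to 11.3 CPM on HFD, which did not separate.

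**Figure D5:**
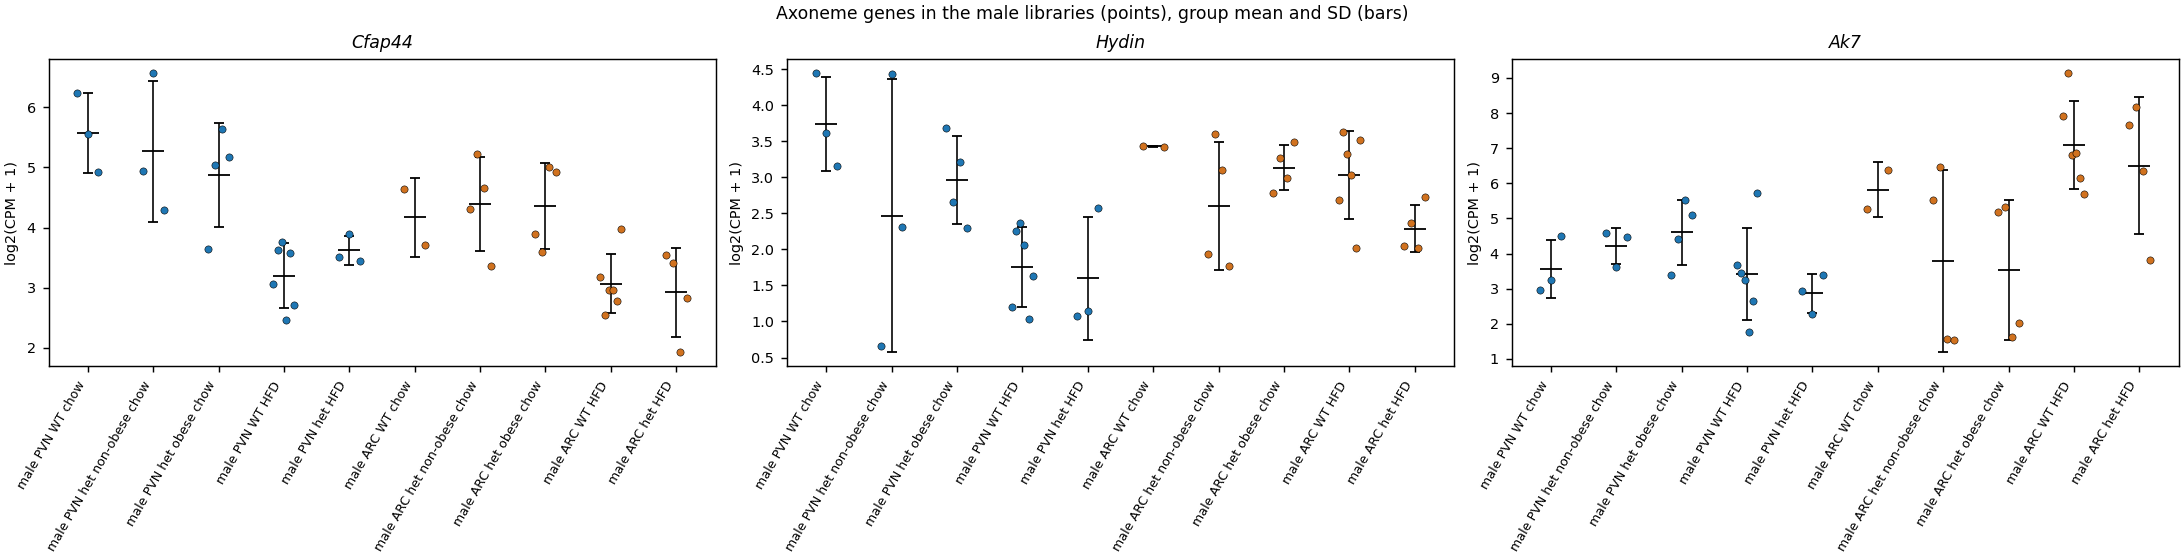
Cfap44, Hydin and Ak7 in each male library (points), as log2(CPM + 1), with the mean and SD of each group (bars), in the PVN (blue) and ARC (orange). WT is Nnat+/+ and het is Nnat+/-p. The 9 HFD points of Cfap44 in the PVN (4.49 to 13.9 CPM) lie below nearly all chow points, and Ak7 spreads from 1.92 to 563 CPM in the ARC.

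The remaining genes of the PVN with an unadjusted p under 0.05 for diet did not pass the adjustment. Ccdc65, of the nexin link, was at 20.5, 14.6 and 17.5 CPM on chow and 3.06 to 7.85 CPM on HFD (-1.65 ± 0.53, adjusted p = 0.255), which did not overlap. Dnai2, an intermediate chain of the outer dynein arm, was at 7.97, 12 and 4.54 CPM on chow and 0.574 to 4.11 CPM on HFD (-1.98 ± 0.66, adjusted p = 0.27). Cfap54, of the central pair, was at 29.7, 19.4 and 10.4 CPM on chow and 6.9 to 11.5 CPM on HFD (-1.14 ± 0.38, adjusted p = 0.27). Dnah5, a heavy chain of the outer dynein arm, went the other way, at 3.14, 12 and 4.54 CPM on chow and 8.91 to 24.2 CPM on HFD (1.10 ± 0.43, adjusted p = 0.352). Cfap65, Drc1, Ccdc153 and Scn7a made up the rest, all with a negative value. Of the other motile cilia genes, 2 of 92 tested were called lower, the dynein heavy chains Dnah10 (-2.38, adjusted p = 0.0788) and Dnah17 (-2.27, adjusted p = 0.146), and 0 of 29 other tanycyte genes were called. Of all genes, 1.43% were called in the same test.

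In the ARC, 1 of 32 genes tested was called for diet, Col23a1, which was higher on HFD (1.15% of all 15753 genes tested were called, 0.521% higher and 0.628% lower). It was at 1.23 and 3.24 CPM in the 2 Nnat+/+ mice on chow and 8.5 to 29.5 CPM (median 14.4) on HFD, with no overlap (2.96 ± 0.72, adjusted p = 0.131, edgeR). The call was lost without either chow library and with DESeq2. Nnat+/-p mice on chow had 4.96 to 28.7 CPM (non-obese) and 3.62 to 9.99 CPM (obese), which overlapped the HFD group. The median was 0.79 for 5 genes of the tanycyte list and 0.20 for 27 of the cilia list, and 0.03 for all genes. There were 5 members with an unadjusted p under 0.05 (Cfap44 lower, Col23a1, Dnah11, Rsph1 and Scn7a higher; 8.61% of all genes). Other markers moved with this comparison, and their part was not tested. The 4 markers of ARC neurons summed to 46.2 and 54.1 CPM on chow and 104 to 642 CPM on HFD, and the 5 markers of oligodendrocytes to 729 and 802 CPM on chow and 239 to 607 CPM on HFD. The 5 general markers of neurons summed to 1092 and 1120 CPM on chow and 528 to 1024 CPM on HFD, without overlap. Of the 6 astrocyte markers, 1 was called higher on HFD (Gfap) and 1 lower (Agt), and their sums overlapped (897 and 950 CPM on chow, 751 to 1059 CPM on HFD).

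Whether the effect of diet in Nnat+/+ mice differed between the nuclei was tested in 1 fit of both. With edgeR 0 of 37 genes were called (0.0187% of all genes), 8 had an unadjusted p under 0.05 (5.63% of all genes), and DESeq2 called 1, Col23a1. The difference of the effects, PVN minus ARC, was -1.25 ± 0.66 for Cfap44 (adjusted p = 0.861, edgeR) and -3.58 ± 1.00 for Col23a1 (adjusted p = 0.809, edgeR). The difference was negative for 26 of 29 genes of the cilia list (leaving out Tmem212, which had groups at 0) and 6 of 7 of the tanycyte list, with medians of -1.25 and -1.18 against -0.08 for all genes. These values share the 3 and 2 libraries of Nnat+/+ mice on chow, replicate 15 among them. The median of the same difference over the 4 markers of ARC neurons was -4.34.

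The third comparison was between genotypes and weight groups. On chow, 0 genes were called in any of 9 contrasts with edgeR at an adjusted p under 0.25. For obese against Nnat+/+, non-obese against Nnat+/+ and obese against non-obese mice, in this order, the shares of all genes called were 0.0256%, 0.0128% and 0% in the male PVN, 0.0129%, 0.00646% and 0% in the female PVN, and 0.0205%, 0.0136% and 0.00682% in the ARC. An unadjusted p under 0.05 was reached by 3, 2 and 0 of 30 genes in the male PVN (3.55%, 2.52% and 1.66% of all genes), 3, 2 and 2 of 31 in the female PVN (3.15%, 4.01% and 3.09%), and 2, 1 and 3 of 30 in the ARC (2.59%, 1.9% and 4.25%). DESeq2 called 0 in 8 of the contrasts and 2 in obese against Nnat+/+ females, Hydin and Spef2, both of the central pair. On HFD, 0 genes were called between Nnat+/-p and Nnat+/+ mice with edgeR or DESeq2 in the PVN (0.00569% of all genes called, 3 of 34 members at an unadjusted p under 0.05, against 0.99% of all genes, namely Gpr50, Rax and Crym of the tanycyte list, all with a lower value in Nnat+/-p mice) or the ARC (0.0127%, of which 0.00635% higher and 0.00635% lower, with 4 of 32 members at an unadjusted p under 0.05, against 4.57%). In the PVN these genes were near the limit of detection. In the 3 Nnat+/-p mice Gpr50 was at 0.137, 0.268 and 0 CPM, Crym at 0, 0.134 and 0 CPM and Rax at 0 in all. In the 6 Nnat+/+ mice Crym was at 0.117 to 1.38 CPM, Rax at 0 to 1.2 CPM and Gpr50 at 0 to 1.64 CPM with 38 CPM in replicate 24, the library low in PVN markers.

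The lowest p of the chow contrasts in the male PVN was that of Ccdc65. It was at 20.5, 14.6 and 17.5 CPM in Nnat+/+ mice, 2.68, 6.99 and 0.376 CPM in non-obese and 1.2, 2.29, 6.43 and 1.82 CPM in obese Nnat+/-p mice. All Nnat+/+ values lay above all Nnat+/-p values, and above those of both HFD groups (3.06 to 9.2 CPM). The log2 fold changes were -2.58 ± 0.78 (obese) and -2.43 ± 0.87 (non-obese), both with an adjusted p of 1 (edgeR), and both use the same 3 Nnat+/+ libraries as the comparison of diets. In the ARC, Ccdc65 was at 2.75 and 8.53 CPM in Nnat+/+ mice and 1.31 to 16.3 CPM in non-obese and 2.14 to 9.02 CPM in obese Nnat+/-p mice, which overlapped.

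In the female PVN, Hydin was at 2.07, 30, 22.8 and 0.698 CPM in Nnat+/+ mice, 0.987, 9.57 and 0.108 CPM in non-obese and 0, 0 and 1.24 CPM in obese Nnat+/-p mice, and the groups overlapped (adjusted p = 0.999, edgeR). In the ARC on chow, Col23a1 was lower in the 2 Nnat+/+ libraries (1.23 and 3.24 CPM) than in any of the 8 Nnat+/-p libraries (3.62 CPM or more), with log2 fold changes of 2.39 ± 0.79 for non-obese and 1.62 ± 0.77 for obese mice, both with an adjusted p of 1 (edgeR). On HFD in the ARC, Cfap43, of the dynein tether, differed most of the 4 between the genotypes (-3.14 ± 1.10, adjusted p = 0.998, edgeR), and Dnah9, a dynein heavy chain, the lowest p (-1.50 ± 0.46, adjusted p = 0.998, edgeR). The differences of these effects between the nuclei called 0 of 37 genes with edgeR and with DESeq2, both for the genotype on HFD and for obese against Nnat+/+ mice (0% of all genes called in each, with 3 and 4 members at an unadjusted p under 0.05, against 2.82% and 6.95% of all genes).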

How the data were processed

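Gene counts were taken as the authors deposited them: 3 tables of raw counts, for the female PVN, male PVN and male ARC, made from stranded single-end libraries of laser-captured tissue. The submitters' processing notes name STAR 2.5.0a and GRCm38. The counting tool, annotation release and strand setting are not given in the sources used here. Of 53 libraries, 49 were used. Replicates 5, 7 and 35 had very low totals, and the label and table of replicate 32 did not match. The authors' own comparisons were not used. Gene symbols were matched for 53274 of 53379 identifiers.

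Genes were kept with edgeR 4.0.16 (R 4.3.3; filterByExpr with a minimum count of 10), scaled by TMM and tested with the quasi-likelihood test, with Benjamini-Hochberg adjustment over all genes kept. Chow groups were fitted within each table, diets within each male nucleus, and the nuclei in 1 fit of all male groups. The threshold was an adjusted p of 0.25 within a nucleus and for differences of effects, and 0.05 between nuclei. SE is the log2 fold change divided by the root of the F statistic. Levels are CPM after TMM over all 49 libraries, and means over a list are on the log2 scale (prior count 2). The statistical scripts were tested on simulated data. DESeq2 1.42.0, RLE scaling, other filters and sample choices, and leaving out each library were tried as alternatives.

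All 38 genes were named, with more detail for the tanycyte list, defining ependymal markers and genes called within a nucleus, and of the wider lists the 3 called genes of lowest p in each direction. The genes and lists were chosen with earlier results of these data known. The labels do not say that mice came from separate litters, so p-values measure the spread between these samples, and limits from a count of 0 cover counting error only. PVN and ARC libraries of 15 mice could be matched by labelled weight, and the deviations of matched libraries from their group means correlated at -0.023 to 0.106.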

Additional observations from a re-analysis of the deposited data

Results flagged for a closer look

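In groups of 4 to 10 libraries, 25 of 110 sets of values held a library far from the rest. Many of these rest on a few counts. In several, only the flagged library had any count, and such a library stands apart whatever its level. The number of sets therefore cannot be compared with a chance rate. No explanation was weighed.

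In the female PVN of Nnat+/+ mice, replicate 2 had the highest mean of the tanycyte list (1.08, next -0.286), Rax (2.96 CPM, next 0) and Col23a1 (28.0 CPM, next 2.59). In the same group Crym was at 1.07 CPM in replicate 3 and Tmem212 at 0.0913 CPM in replicate 1, with 0 in the next.

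In the ARC of Nnat+/+ mice on HFD, replicate 47 was highest for Rarres2 (11.3 CPM, next 4.0), Ccdc153 (8.06, next 1.86), Tmem212 (1.74, next 0.45) and Tm4sf1 (10.9, next 3.96). Replicate 49 was highest for Cfap44 (14.7 CPM, next 8.1). In Nnat+/-p mice on HFD, replicate 52 was highest for Rax (1.78 CPM, next 0) and Ccdc153 (1.02 CPM, next 0).

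In the ARC of non-obese Nnat+/-p mice, replicate 39 was highest for Col23a1 (28.7 CPM, next 8.29) and Tmem212 (2.61 CPM, next 0), replicate 43 for Gpr50 (18.4 CPM, next 3.49) and replicate 40 for Ccdc153 (1.51 CPM, next 0). In obese mice, Rax and Ccdc153 were at 0.952 CPM in replicate 42 and at 0 in the next, Tmem212 at 0.205 CPM in replicate 37 (next 0), and Rsph1 was lowest in replicate 41 (0.775 CPM, next 2.67).

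In the male PVN of Nnat+/+ mice on HFD, replicate 24 was highest for Gpr50 (38.0 CPM, next 1.64) and lowest for Tm4sf1 (0.687 CPM, next 5.91), and replicate 25 highest for Ccdc153 (1.52 CPM, next 0.11). In obese Nnat+/-p mice, replicate 16 was highest for Tm4sf1 (7.83 CPM, next 2.86) and replicate 21 for Mia (0.779 CPM, next 0).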

How the results depend on the processing

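Between the nuclei, the main result was 4 genes higher and 6 lower in the PVN. At an adjusted p of 0.25, 7 were higher. At that threshold more of all genes were called too. Within obese mice the share of all genes rose from 3.27% to 20.0%, and within Nnat+/+ mice on HFD from 2.79% to 6.96%. In the 15 mice matched by weight, 2 were higher with a replicate block and 1 without it (the latter chosen after seeing the data); Mlf1 and Spag6 were not called in either fit of these mice, and Cfap44 was called only with the block; the numbers were not taken to pair the samples. Within 1 condition, 0 were higher in each of the 5. Lower were 5 (Nnat+/+ HFD), 0 (Nnat+/+ chow), 0 (non-obese), 2 (obese) and 1 (Nnat+/-p HFD), with the shares of all genes given above. In Nnat+/+ mice on chow the difference changed sign for Scn7a (0.14), Col23a1 (1.23), Cfap126 (0.39) and Spag6 (-0.04), and in obese mice for Ak7 (0.33); the cause was not tested. Leaving out 1 library gave 2 to 5 higher (fewest without replicates 30 or 33) and 4 to 7 lower. The shares of all genes are not given for the mean over conditions at 0.25, the matched mice and the fits without 1 library. Their numbers are therefore not results about these genes alone.

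For diet in the PVN (2 calls), there were 5 with DESeq2 (2.72% of all genes called, against 1.43% as reported), 5 with RLE scaling (1.72%), 7 with all genes kept whose counts summed to over 1 (the total count filter; 2.95%), 5 from only the 2 groups compared (1.45%), 1 at an adjusted p of 0.05 (0.148%), 4 without replicates 15 and 24 (4.91%), and 1 to 8 leaving out 1 library (changed by replicates 13, 14, 15, 26, 27 and 28). Without replicate 15 the median of the cilia list was -0.95. For diet in the ARC (1 call), there were 0 with DESeq2 (2.19% of all genes), 0 at an adjusted p of 0.05 (0.0317%), 4 with the total count filter (1.55%), 3 from only the 2 groups (5.17%), and 0 to 1 leaving out 1 library (0 without replicates 33 or 34). For the difference in diet effect there was 1 call with DESeq2 (0.126% of all genes), 1 with all labelled libraries (0.263%), 1 without replicates 15 and 24 (0.0572%), and 3 with the total count filter (0.225%).

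Other comparisons had 0 calls. The total count filter, under which 0.0208% to 0.845% of all genes were called in these contrasts, gave 1 for genotype on HFD in each of the ARC, the PVN and their difference, 1 for obese against Nnat+/+ mice in the ARC and in females, 1 for non-obese females, and 2 for the difference of obese against Nnat+/+ mice. DESeq2 gave 2 for obese against Nnat+/+ females (0.544% of all genes). All labelled libraries gave 3 for the same contrast and 2 for obese against non-obese females, with 6.04% and 4.01% of all genes called. Leaving out 1 library gave 0 to 0 in all of them.

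Depth limits the low genes: a count of 0 allows a level of up to 2.03 CPM, before TMM scaling, in the shallowest library.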
